A study of Mus musculus with 8 samples.

Results

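The 36 genes described here are the members of the 4 Hox clusters that the array design covered, measured in the medial ganglionic eminence (MGE) of the embryonic mouse telencephalon. They were chosen by name alone: every non-control probe whose transcript accession matched a mouse gene symbol of the form Hoxa, Hoxb, Hoxc or Hoxd followed by a digit. The rule gave 46 probes, of 41174 on the array, for 11 Hoxa, 10 Hoxb, 6 Hoxc and 9 Hoxd genes, of 17178 genes with a symbol. Of the 39 coding Hox genes in the reference table, Hoxc4, Hoxc6 and Hoxc11 had no matched probe and were not analysed here, nor were 4 opposite-strand transcripts of the clusters. Each of 10 genes had 2 probes and each of the other 26 had 1.

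RNA came from microdissected MGE at embryonic day 13.5, with 4 WT and 4 Nkx2-1cKO samples, each on its own 1-colour Agilent array. All mice were C57BL/6 by the labels. The labels give WT as Nkx2-1flox/+ without the Olig2tva-cre allele, and Nkx2-1cKO as Nkx2-1flox/+ with it, so that by the labels both groups carried 1 floxed Nkx2-1 allele, while the methods name the floxed strain as Nkx2-1f/f. Cre in this cross is driven by Olig2 regulatory sequence, so cells of the dissected tissue that never express Olig2, such as those of blood vessels, are outside its reach. The log2 signal of Nkx2-1, set against that array's 75th percentile, lay between 1.82 and 1.95 in WT and between -4.67 and -4.26 in Nkx2-1cKO. Where its probe lies relative to the deleted part was not checked. Nothing in the labels says that the samples of a group came from separate embryos, so p-values measure the spread between these samples, which may be technical.

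Hox genes encode homeodomain transcription factors that give cells of the body axis their anterior to posterior identity. Genes at the same relative place in each cluster form a paralog group, given by the number in the gene name, and genes of low number are in general expressed further forward in the embryo than genes of high number. In the neural tube their expression is known from the hindbrain and spinal cord, and the forebrain is known as territory in which the clusters are kept silent by Polycomb repressor complexes. The question put to these arrays was whether the clusters were silent in the MGE of both groups.

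Most Hox genes were near or below the detection limit in both groups, and no Hox probe passed the test between them. Of the 36 genes, 6 had a probe flagged as well above background on all 8 arrays, 15 on none, and 15 on 1 to 7 arrays. Well above background is the software's own flag for a spot whose signal clearly exceeds its local background, and among all genes with a symbol 77.3% had such a probe on all 8 arrays and 8.78% on none. By probe, 6 of 46 Hox probes were well above background on all 8 arrays (66.8% of all probes) and 23 on none (14.3% of all probes). A lack of this flag is a limit of detection and not an absence of transcript, and in bulk tissue fewer cells of a type and less RNA per cell cannot be told apart.

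**Figure D1:**
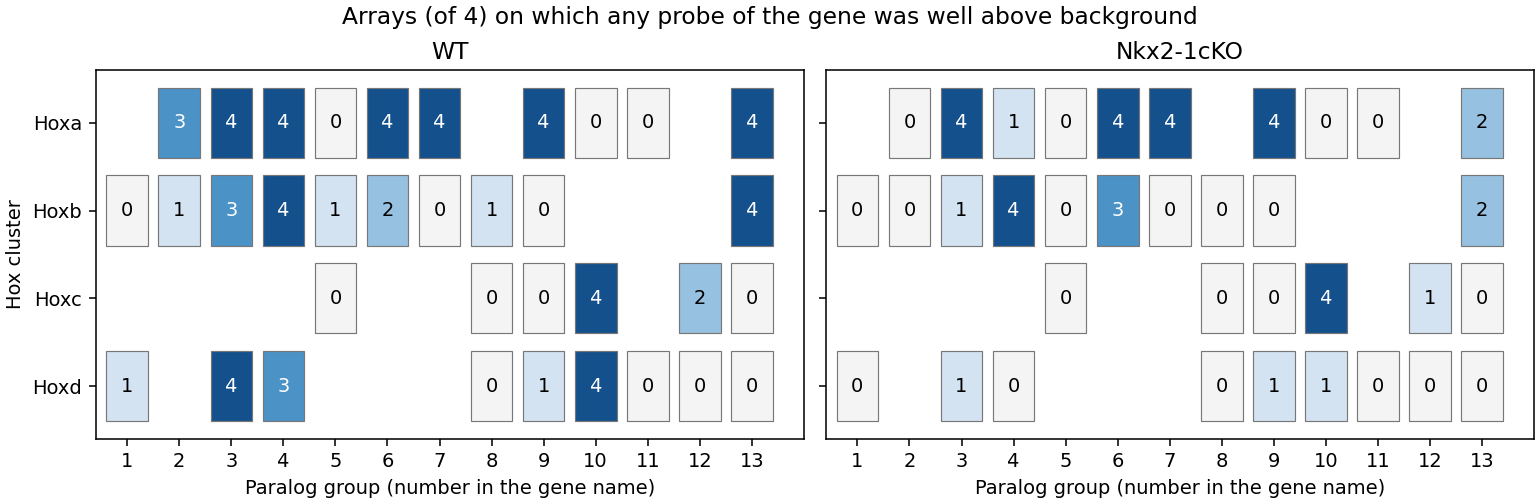
Number of arrays, of 4 in each group, on which any probe of a Hox gene was well above background, with clusters in rows and paralog groups in columns. Blank places have no gene, no matched probe or a gene that is not shown. The 6 genes with 4 arrays in both panels are Hoxa3, Hoxa6, Hoxa7, Hoxa9, Hoxb4 and Hoxc10, and 11 genes reach 4 arrays in WT.

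The genes detected on all 8 arrays were Hoxa3, Hoxa6, Hoxa7 and Hoxa9 of the A cluster, Hoxb4 and Hoxc10. None of the 9 genes of the D cluster was among them. Hoxa3, of the paralog group known for roles in pharyngeal and hindbrain patterning, had processed intensities of 605, 285, 487 and 294 on WT replicates 1 to 4 and of 322, 466, 241 and 437 on the Nkx2-1cKO replicates. The groups overlapped between 285 and 466, and each had values outside that span. Hoxa7, a gene of trunk identity, gave 87.3, 52.8, 50.9 and 56.6 in WT and 46.1, 42.9, 46.8 and 51.4 in Nkx2-1cKO. Apart from WT replicate 1, its 7 values lay within a range of 42.9 to 56.6. Hoxa6, its neighbour in the cluster, gave 308, 78.5, 92.9 and 88.3 in WT and 86.5, 80.9, 51.0 and 109 in Nkx2-1cKO. Hoxa9, a gene of the posterior trunk also known from blood progenitors, gave 137, 40.3, 100.1 and 42.8 in WT and 33.3, 50.9, 26.5 and 60.0 in Nkx2-1cKO. In these genes too the groups overlapped, with WT replicate 1 as the highest array.

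Hoxb4, known from the hindbrain and spinal cord, gave 195, 45.0, 53.0 and 56.7 in WT and 41.3, 31.5, 27.1 and 50.1 in Nkx2-1cKO. Hoxc10, a gene of lumbar motor neurons and the hindlimb level, gave 309, 86.4, 88.9 and 106 in WT and 55.1, 82.9, 54.9 and 101 in Nkx2-1cKO. For both genes the highest Nkx2-1cKO array, replicate 4, exceeded the lowest WT array.

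The 15 genes with no probe well above background on any array included Hoxa5, Hoxa10, Hoxb1, Hoxb7, Hoxb9, Hoxc8, Hoxc9, Hoxd8, Hoxd11, Hoxd12 and Hoxd13. They came from all 4 clusters. Hoxb1 is known to pattern the early hindbrain. On the 7 arrays other than WT replicate 1, the Hox probes that were never well above background had intensities from 3.43 to 21.4, and on WT replicate 1 they reached 47.9. Hoxa5 may stand as an example, with 11.3, 3.93, 4.12 and 3.57 in WT and 4.73, 5.23, 3.67 and 3.75 in Nkx2-1cKO. Of all 368 Hox values, 138 were not positive and significant by the software's test against background, and 135 of these equalled the spot's own error within 2%. Such values stand in for a measurement and have no order.

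Promoters are printed for a pair of genes detected on all 8 arrays, Hoxa7 and Hoxb4, and for a pair detected on none, Hoxa5 and Hoxd13, so that their CpG content can be seen beside the calls. Each runs from 250 bases before to 50 bases after a transcript start in RefSeq (GRCm38.p6), 5′ to 3′ on the gene's strand, with every CG in capitals. Hoxa7 lies at chr6:52218524-52218823 on the minus strand, Hoxb4 at chr11:96318017-96318316 on the plus strand, Hoxa5 at chr6:52204538-52204837 on the minus strand and Hoxd13 at chr2:74667975-74668274 on the plus strand.
Hoxa7: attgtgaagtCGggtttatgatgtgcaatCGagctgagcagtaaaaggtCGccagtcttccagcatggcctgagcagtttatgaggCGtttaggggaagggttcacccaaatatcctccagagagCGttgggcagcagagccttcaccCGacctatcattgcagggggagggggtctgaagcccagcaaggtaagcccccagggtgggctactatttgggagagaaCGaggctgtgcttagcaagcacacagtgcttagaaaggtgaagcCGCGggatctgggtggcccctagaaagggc
Hoxb4: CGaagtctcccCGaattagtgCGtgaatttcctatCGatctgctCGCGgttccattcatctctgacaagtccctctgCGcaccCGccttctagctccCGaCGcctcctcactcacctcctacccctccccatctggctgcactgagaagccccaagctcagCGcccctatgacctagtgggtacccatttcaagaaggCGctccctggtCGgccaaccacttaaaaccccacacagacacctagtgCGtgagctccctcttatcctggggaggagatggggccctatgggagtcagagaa
Hoxa5: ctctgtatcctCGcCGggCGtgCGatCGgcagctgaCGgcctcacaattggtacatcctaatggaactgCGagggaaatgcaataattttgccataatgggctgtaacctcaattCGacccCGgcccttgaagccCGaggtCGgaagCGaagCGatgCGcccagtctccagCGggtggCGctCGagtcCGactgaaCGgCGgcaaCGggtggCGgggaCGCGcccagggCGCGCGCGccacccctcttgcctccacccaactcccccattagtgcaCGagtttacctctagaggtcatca
Hoxd13: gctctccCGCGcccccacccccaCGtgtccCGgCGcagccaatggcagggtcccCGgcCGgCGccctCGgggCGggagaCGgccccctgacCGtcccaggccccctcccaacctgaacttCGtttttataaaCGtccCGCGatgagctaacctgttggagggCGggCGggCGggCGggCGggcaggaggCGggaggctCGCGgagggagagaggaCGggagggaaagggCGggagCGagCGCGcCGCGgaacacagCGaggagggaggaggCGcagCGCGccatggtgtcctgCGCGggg

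These hold 9, 14, 29 and 37 CG pairs in that order. RefSeq promoters were matched for 21 of the 36 genes, 23 in all, and they held 4 to 45 CG with a median of 15, against a median of 7 over 32851 promoters of the same length. The 5 promoters of genes detected on all 8 arrays ranged from 4 to 26 CG with a median of 14, and the 10 promoters of genes detected on none from 4 to 37, also with a median of 14. CpG content therefore did not order the genes by detection among the promoters matched. TATAAA, searched on both strands, was found in 4 of the 23 (17.4%) and in 13.6% of all promoters. TGATNNAT, the letters of a PBX and HOX dimer site, was found on either strand in 4 of the 23 (17.4%) and in 8.85% of all promoters. A match is a description of these windows and not a bound site.

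The remaining 15 genes were detected on 1 to 7 arrays, and they were detected more often in WT. Over all 36 genes, 13 were well above background on more WT than Nkx2-1cKO arrays (9.67% of all genes with a symbol) and 1, Hoxb6, on more Nkx2-1cKO than WT arrays (2.12% of all genes). On all 4 WT arrays 11 genes were detected (80.6% of all genes) and on all 4 Nkx2-1cKO arrays 6 (78% of all genes). Genes detected on all 4 WT arrays but on fewer Nkx2-1cKO arrays were Hoxa4, Hoxd3 and Hoxd10, with 1 Nkx2-1cKO array each, and Hoxa13 and Hoxb13, with 2 each. Hoxb3 was detected on 3 WT arrays and 1 Nkx2-1cKO array, Hoxc12 on 2 and 1, and Hoxd9 on 1 and 1. Detected on some WT arrays and no Nkx2-1cKO array were 6 genes (3.31% of all genes), Hoxa2 and Hoxd4 on 3 WT arrays and Hoxb2, Hoxb5, Hoxb8 and Hoxd1 on WT replicate 1 alone. No Hox gene was detected in Nkx2-1cKO and not in WT. The 9.67, 2.12 and 3.31% are shares of all genes. Of these genes 77.3% were detected on all 8 arrays and 8.78% on none, and could not differ in this way. Among all genes, 1661 were detected on more WT arrays and 365 on more Nkx2-1cKO arrays, so this direction was not particular to Hox genes.

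These counts moved with single arrays. The number of Hox probes well above background was 21, 15, 16 and 18 on WT replicates 1 to 4 and 9, 8, 8 and 17 on the Nkx2-1cKO replicates, so Nkx2-1cKO replicate 4 lay within the WT range and the other 3 arrays of its group below it. As shares these were 45.7, 32.6, 34.8 and 39.1% in WT and 19.6, 17.4, 17.4 and 37.0% in Nkx2-1cKO, beside shares of all probes of 76.8, 76.0, 76.8 and 79.3% in WT and 71.7, 72.4, 71.1 and 79.5% in Nkx2-1cKO. The Nkx2-1cKO array with the most Hox probes detected was thus also the one with the most probes detected of any kind. In WT this did not hold, as replicate 1 had the most Hox probes and replicate 4 the largest share of all probes. Over the group, 38.0% of the Hox values in WT and 22.8% in Nkx2-1cKO were well above background, and 35.5% and 18.1% with WT replicate 1 and Nkx2-1cKO replicate 4 left out. With these 2 arrays left out, 9 genes were detected on more WT arrays, 0 on more Nkx2-1cKO arrays, 6 on all of the other 6 arrays and 20 on none of them. The 2 arrays were chosen after the counts were seen. Leaving out Nkx2-1cKO replicate 4, which lay within the WT range, favours a higher count in WT. These values therefore cannot show that the difference is stable.

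**Figure D2:**
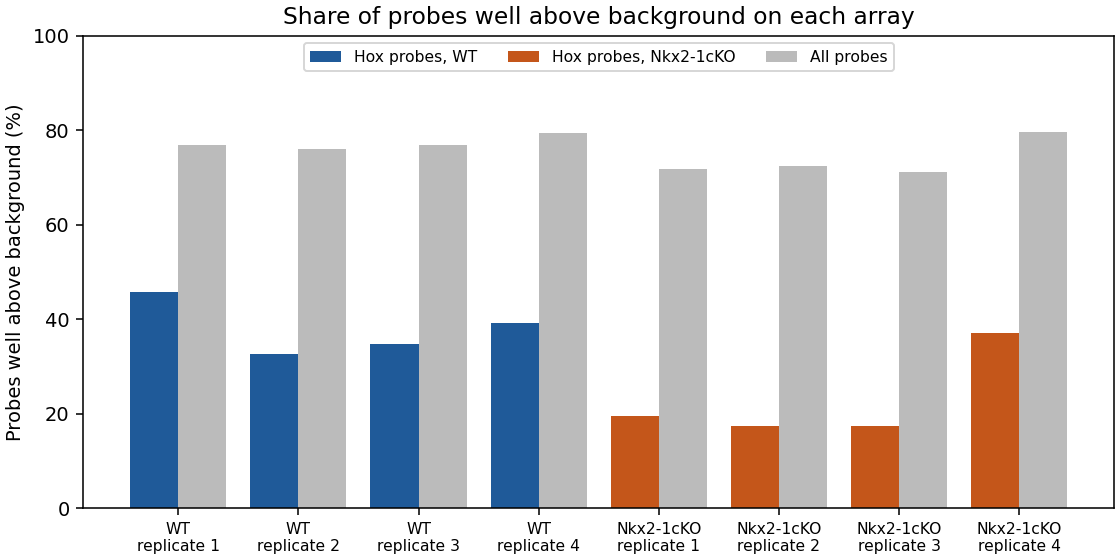
Share of probes well above background on each array, for the 46 Hox probes (blue, WT, and orange, Nkx2-1cKO) and for all 41174 probes (grey). The Hox share lies between 17.4 and 45.7% and is below that of all probes on every array, and Nkx2-1cKO replicate 4, at 37.0%, stands with the WT arrays.

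WT replicate 1 stood apart at the dim end. It was the highest of the 8 arrays for 45 of the 46 Hox probes, against 46.7% of all probes. Its negative control spots had a median intensity of 11.3, against 3.67 to 5.20 on the other arrays, and its dimmest probe well above background had an intensity of 51.5, against 17.1 to 22.9. The 6256 dimmest tested probes lay 1.18 above the median of the other arrays on the log2 scale on this array, 0.23 above on Nkx2-1cKO replicate 4 and between 0.41 below and 0.09 above on the others. The part of these array differences in the Hox values was not tested.

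For the comparison of the groups, log2 intensities relative to the array's 75th percentile were fitted with limma over the 31280 probes that reached this flag on 4 or more arrays (76% of all probes). Of the Hox genes 13, by 15 probes, entered this test, and 23 were too dim. None of the 15 probes passed an adjusted p of 0.05 in limma, where 1.04% of all tested probes did (0.614% lower and 0.422% higher in Nkx2-1cKO). At an unadjusted p under 0.05 there were 2 of the 15, with 8.62% of all tested probes. With no filter on dim probes, limma called 0 of the 46 Hox probes after adjustment, beside 0.721% of all probes, and 4 at an unadjusted p under 0.05. Adjusted p-values of the 15 ran from 0.493 to 0.945. A p that misses the threshold does not show that levels were equal.

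By sign, 14 of the 15 Hox probes were lower in Nkx2-1cKO with the processed signal, and 0 of the 15 were lower when background was corrected with normexp from the raw intensities. With the processed signal the median log2 difference was -0.79, beside -0.04 for all tested probes, of which 57.5% were lower. It was -0.42 for the 6256 dimmest tested probes, of which 85.6% were lower and to which 12 of the 15 Hox probes belonged. Without WT replicate 1 the medians of the same probes were -0.31 for Hox, -0.00 for all and -0.15 for the dimmest. On slide 1, which held WT replicates 1 and 3 and Nkx2-1cKO replicates 2 and 4, all 15 Hox probes were lower with a median of -1.03, and on slide 2 13 were lower with a median of -0.45. With the slide as a block in limma 0 Hox probes passed. With normexp the medians were 0.41 for Hox and 0.18 for all probes. Normexp added an offset of 50 to every corrected intensity before scaling and log2. The part of this offset in the change of sign was not tested. The Hox probes of this test had passed a filter that a gene high only in WT can pass through the WT arrays alone.

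**Figure D3:**
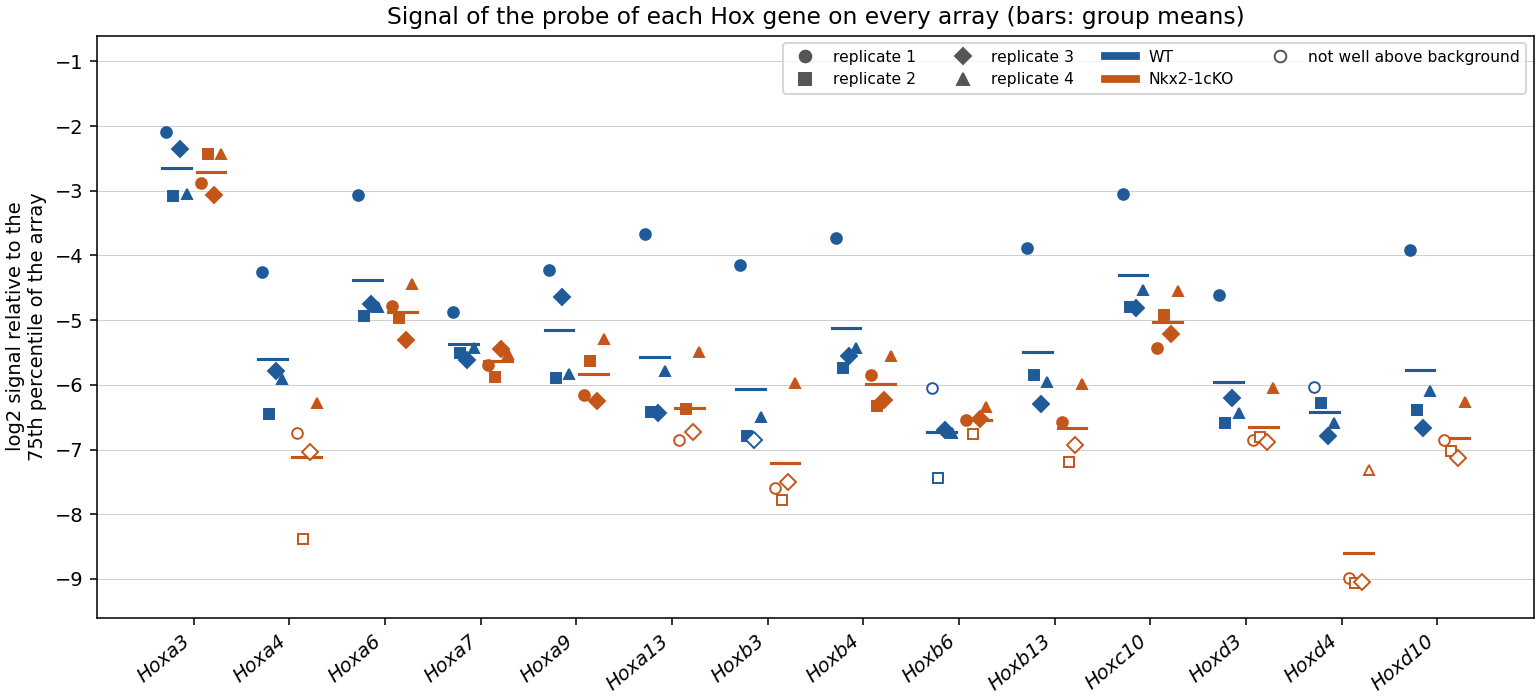
Log2 signal relative to the 75th percentile of the array for the probe of each tested Hox gene and for Hoxd4, which was not tested. Marker shapes are replicates, horizontal bars are group means of 4 arrays, and open markers were not well above background. WT replicate 1 is the highest array for every gene shown, and the groups do not overlap for Hoxd4 alone.

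Hoxa4, a gene of hindbrain and cervical identity, passed the filter through its 4 WT arrays and 1 Nkx2-1cKO array. Its intensities were 135, 27.5, 45.4 and 40.5 in WT and 22.3, 7.53, 15.5 and 30.4 in Nkx2-1cKO. Only the highest Nkx2-1cKO array, replicate 4, exceeded the lowest WT array. The log2 difference was -1.51 ± 0.58 (SE, limma, adjusted p = 0.493, unadjusted p = 0.027), -1.06 without WT replicate 1 and 0.39 with normexp. The Nkx2-1cKO values of replicates 1 to 3 were not well above background, so the size of the difference rests on values near it.

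Hoxb13, a gene of the tail and prostate, gave 174, 41.6, 31.9 and 39.3 in WT and 25.0, 17.3, 16.6 and 37.3 in Nkx2-1cKO, a log2 difference of -1.17 ± 0.53 (SE, limma, adjusted p = 0.587), and -0.63 without WT replicate 1. Hoxd10, which acts in lumbar motor neurons and the limb, gave 170, 28.6, 24.7 and 35.7 in WT and 20.5, 19.4, 14.5 and 30.7 in Nkx2-1cKO, a log2 difference of -1.05 ± 0.58 (SE, limma, adjusted p = 0.635), and -0.43 without WT replicate 1. In both genes Nkx2-1cKO replicate 4 lay among WT replicates 2 to 4, and the other Nkx2-1cKO arrays lay below them.

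Hoxb3, of the same paralog group as Hoxa3, gave 146, 21.8, 21.6 and 27.2 in WT and 12.2, 11.4, 11.2 and 37.9 in Nkx2-1cKO. WT replicate 1 and Nkx2-1cKO replicate 4 were each far above the rest of their group, and the log2 difference was -1.14 ± 0.68 (SE, limma, adjusted p = 0.648). Without WT replicate 1 the probe no longer passed the filter, and the means differed by -0.50. Hoxd3, the third member of that paralog group, gave 106, 24.9, 33.8 and 28.3 in WT and 20.5, 22.5, 17.1 and 35.7 in Nkx2-1cKO, a log2 difference of -0.69 ± 0.47 (SE, limma, adjusted p = 0.662), and -0.24 without WT replicate 1. Again Nkx2-1cKO replicate 4 was the highest of its group, above WT replicates 2 to 4.

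Hoxb6 was the only tested Hox gene with a higher mean in Nkx2-1cKO. It gave 38.7, 13.8, 24.2 and 22.9 in WT and 25.4, 23.2, 22.0 and 29.0 in Nkx2-1cKO. The highest value, on WT replicate 1, was not well above background on that array, and the log2 difference was 0.19 ± 0.38 (SE, limma, adjusted p = 0.875). Without WT replicate 2, the lowest array, it was -0.05.

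The 6 genes detected on all 8 arrays had log2 differences of -0.06 ± 0.25 for Hoxa3, -0.49 ± 0.40 for Hoxa6, -0.27 ± 0.24 for Hoxa7, -0.68 ± 0.42 for Hoxa9, -0.87 ± 0.44 for Hoxb4 and -0.73 ± 0.39 for Hoxc10 (SE, limma), with adjusted p-values from 0.618 to 0.945. Without WT replicate 1 the difference of Hoxa3 turned to 0.12 and that of Hoxa6 went to -0.05, and the others were -0.11 for Hoxa7, -0.37 for Hoxa9, -0.41 for Hoxb4 and -0.31 for Hoxc10.

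**Figure D4:**
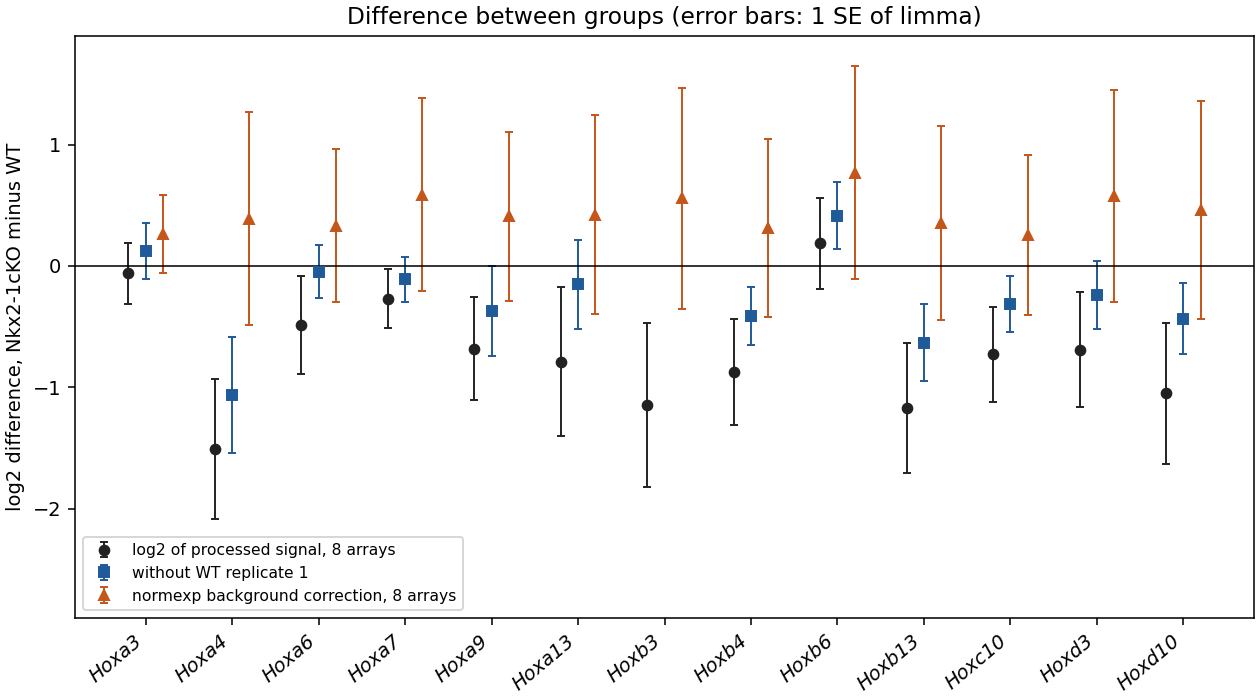
Log2 difference, Nkx2-1cKO minus WT, of the 13 tested Hox genes with 1 SE from limma, from the processed signal on 8 arrays (black circles), without WT replicate 1 (blue squares; Hoxb3 then no longer passed the filter) and with normexp background correction (orange triangles). With the processed signal 12 genes lie below 0 and Hoxb6 above, and with normexp all 13 lie above 0.

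Across all 46 Hox probes, the groups did not overlap for 2, both lower in Nkx2-1cKO, beside 4.03% of all probes that were lower and 1.79% that were higher without overlap (4.12% lower among tested probes, with 1 of the 15 Hox probes). The first was the second probe of Hoxa13, a gene of the genital tubercle and digits. It gave 112, 39.3, 29.7 and 35.1 in WT and 18.7, 26.7, 14.9 and 27.2 in Nkx2-1cKO, a log2 difference of -1.03 ± 0.44 (SE, limma, adjusted p = 0.553), and -0.62 without WT replicate 1. Its Nkx2-1cKO replicates 1 and 3 were not well above background. The other Hoxa13 probe gave 203, 28.2, 28.9 and 44.6 in WT and 20.6, 30.4, 19.0 and 52.7 in Nkx2-1cKO. There the groups overlapped, and the log2 difference was -0.79 ± 0.61 (SE, limma, adjusted p = 0.686), and -0.15 without WT replicate 1.

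The second was the probe of Hoxd4, a hindbrain and cervical gene that was too dim for the test and is singled out after its values were seen. Its intensities were 39.3, 30.9, 22.6 and 25.3 in WT and 4.67, 4.73, 3.84 and 14.9 in Nkx2-1cKO. WT replicates 2, 3 and 4 were well above background, WT replicate 1 was not on its brighter array, and no Nkx2-1cKO array was. All 4 WT values lay above the 4 Nkx2-1cKO values, but the size of the difference cannot be given from values that were not well above background. The mean of WT replicates 2, 3 and 4 was 1.25-fold the lowest processed signal well above background on the Nkx2-1cKO arrays. This is not a lower bound, because other Hox probes missed the flag at higher signals. On Nkx2-1cKO replicate 3 a Hoxa13 probe at 19.0 was not well above background, while the lowest flagged signal there was 17.7. With WT replicate 1 included the fold was 1.37, which is not a lower bound either, and that WT value was itself not well above background. Of all probes, 0.393% were well above background on at least 3 WT arrays and on no Nkx2-1cKO array, as Hoxd4 and Hoxa2 were. That share counts in the 66.8% of probes detected on all 8 arrays and the 14.3% on none, which could not show this pattern. With normexp the group means lay the other way, Nkx2-1cKO above WT by 0.47 on the log2 scale.

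Hoxa2, which specifies the second pharyngeal arch and forms part of the hindbrain code, gave 77.5, 9.60, 22.2 and 68.2 in WT and 12.0, 20.3, 3.92 and 12.1 in Nkx2-1cKO. WT replicate 2 lay among the Nkx2-1cKO arrays, so the groups overlapped. Against the lowest signal well above background on the Nkx2-1cKO arrays, the WT mean was 1.55-fold higher, and 1.17-fold without WT replicate 1. Both means include WT replicate 2, which was not well above background, so neither value is a lower bound.

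Probes of the same gene often gave different calls. Of the 10 genes with 2 probes, Hoxb9 and Hoxd13 were detected by neither probe, Hoxa13 was detected by both on 6 arrays, and Hoxc10 by one probe on 8 arrays and by the other on 7. In Hoxa3, Hoxa4, Hoxb3, Hoxb8, Hoxd3 and Hoxd9 one probe was well above background on at least 1 array and the other on none. The extreme was Hoxa3, whose second probe gave 46.8, 4.17, 5.45 and 4.09 in WT and 5.22, 7.14, 7.71 and 5.05 in Nkx2-1cKO, never well above background, while the first was detected on every array. In the reference annotation the Hoxa3 gene model overlaps those of Hoxa4, Hoxa5 and Hoxa6, Hoxb3 overlaps Hoxb4, Hoxd3 overlaps Hoxd4 and Hoxd11 overlaps Hoxd10. Which transcript of such a stretch a probe read cannot be told apart with the annotation used here.

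The genes around the clusters and those of the TALE and Polycomb lists were mostly detected on all 8 arrays. Of 18 neighbours of the clusters with a probe, 17 were detected on all 8 arrays, and Ttll6, next to the B cluster, on 2. Skap1, an adaptor protein gene on the other side of that cluster, fell in Nkx2-1cKO by 0.93 on the log2 scale (limma, adjusted p = 0.0248), and no other neighbour passed the test. All 24 forebrain homeobox genes listed were detected on all 8 arrays, and in Nkx2-1cKO those that rose included Isl1, Six3 and Meis2 and those that fell included Nkx2-1, Lhx6 and Lhx8. Of the TALE genes, whose products bind DNA together with Hox proteins, 9 of 9 were detected on all 8 arrays, and Meis2 rose by 0.98 on the log2 scale (limma, adjusted p = 0.046). Of 19 Polycomb genes, which encode the repressors of Hox clusters, 18 were detected on all 8 arrays and Phc3 on none. Of those tested 0 passed in limma in either direction, with 2 at an unadjusted p under 0.05. Over all tested probes 1.04% passed and 8.62% had an unadjusted p under 0.05, so these counts set the Polycomb genes apart in neither way.

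**Figure D5:**
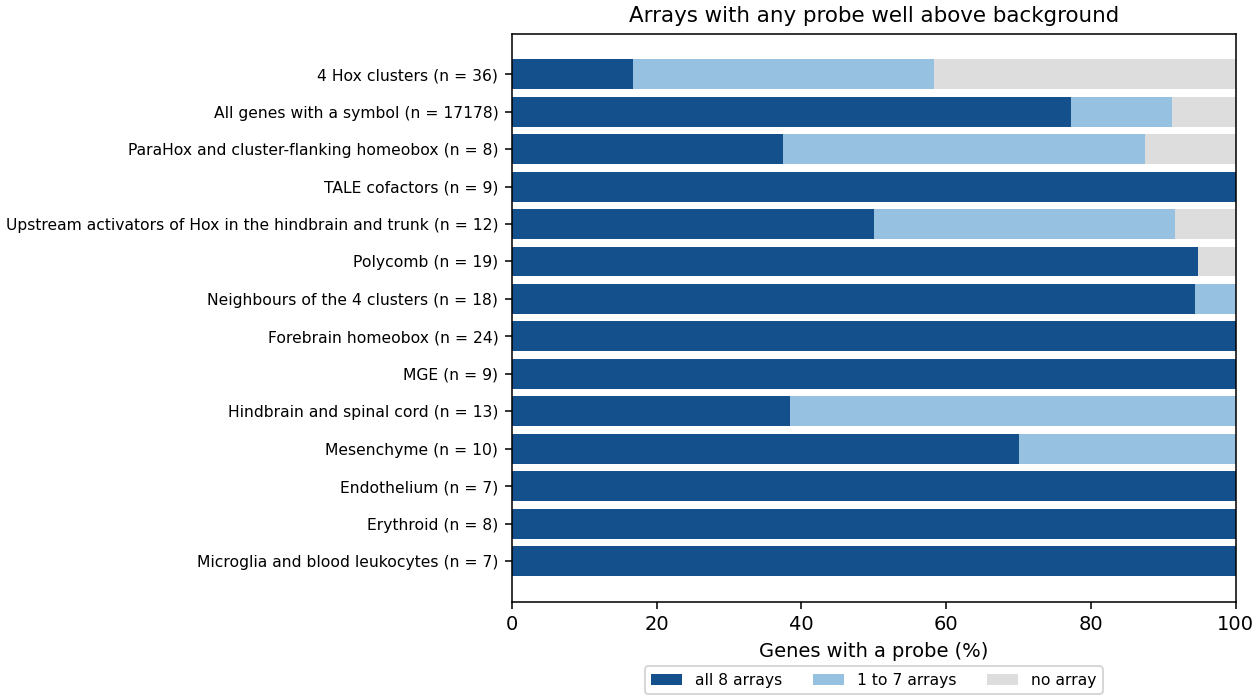
Share of genes with a probe that were well above background on all 8 arrays (dark blue), on 1 to 7 (light blue) and on none (grey), for the 4 Hox clusters, all genes with a symbol and the gene lists used for comparison. For Hox genes 16.7% reach all 8 arrays and 41.7% none, and for all genes 77.3 and 8.78%.

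Of the homeobox genes related to Hox or flanking the clusters, Gsx1 and Gsx2, ParaHox genes of ganglionic eminence progenitors, were detected on all 8 arrays, as was Evx2, next to the D cluster. Evx1, next to the A cluster, was detected on 5 arrays, 4 WT and 1 Nkx2-1cKO. The ParaHox genes of posterior and gut identity were mostly undetected, with Cdx1, Cdx2 and Pdx1 detected on WT replicate 1 alone and Cdx4 on no array. None of the 4 tested members, Gsx1, Gsx2, Evx1 and Evx2, passed the test in limma, beside 1.04% of all tested probes. Their adjusted p-values ran from 0.411 to 0.951, and 2 unadjusted p-values were under 0.05, beside 8.62% of all tested probes. Of 12 upstream regulators with a probe, among them retinoic acid receptors and enzymes and the hindbrain factor Egr2, 6 were detected on all 8 arrays, and Rarb, a receptor whose gene retinoic acid is known to induce, rose by 1.51 on the log2 scale (limma, adjusted p = 0.0075).

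Markers of the dissected tissue and of tissues that express Hox genes were read beside these values. All 9 MGE genes were detected on all 8 arrays, and 3 of them, Nkx2-1, Lhx6 and Lhx8, fell in Nkx2-1cKO. Of 13 hindbrain and spinal cord markers with a probe, 5 were detected on all 8 arrays and 0 on none, and Ptf1a, a factor of dorsal hindbrain and spinal progenitors, fell by 2.52 on the log2 scale (limma, adjusted p = 0.000354). Their summed level, in units of the array's 75th percentile, was 0.891 to 1.69 in WT and 0.627 to 0.968 in Nkx2-1cKO, and the highest arrays were WT replicate 1 and Nkx2-1cKO replicate 4, as for Hox detection. Of 10 mesenchyme markers 7 were detected on all 8 arrays, with summed levels of 1.52 to 7.82 in WT and 1.17 to 1.85 in Nkx2-1cKO, highest on WT replicate 4 and Nkx2-1cKO replicate 4, and Pdgfra, which also marks oligodendrocyte precursors, fell by 1.76 on the log2 scale (limma, adjusted p = 4.9e-05). The 7 endothelial, 8 erythroid and 7 leukocyte markers were all detected on all 8 arrays. In limma 0 passed the test, with 0 at an unadjusted p under 0.05, beside 1.04 and 8.62% of all tested probes. The part of any of these cells in the Hox signals was not tested.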

How the data were processed

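Total RNA of 8 MGE samples, 4 WT and 4 Nkx2-1cKO, was amplified, labelled with Cy3 and hybridised to 1-colour Agilent whole mouse genome arrays on 2 slides, each with 2 arrays of each group. The deposited intensities are those of Agilent Feature Extraction (version 10.1 per the labels, 10.7.3.1 per the file headers), corrected for background and not scaled between arrays, with raw median intensities, errors and flags for each spot. The methods do not describe later processing of the arrays.

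Control spots and spots flagged as outliers did not enter. The log2 of each array's 75th percentile was subtracted from log2 intensities, and replicate spots were averaged. A probe was called well above background where most of its spots carried that flag. Accessions were matched to symbols of a RefSeq table of GRCm38.p6 (24844 of 41174 probes). Probes with this call on 4 or more of the 8 arrays were fitted with lmFit and eBayes with a variance trend (limma 3.58.1, R 4.3.3), with Benjamini-Hochberg adjustment over all 31280 probes and a threshold of 0.05. A gene with more than 1 tested probe is represented by the brightest. For Hoxd4 and Hoxa2 the WT mean was compared with the lowest signal well above background on each Nkx2-1cKO array. The fold is not a lower bound, because probes could miss the flag at signals above the lowest flagged one. Some of the WT values averaged were also not well above background. The steps were tested on simulated data, with a log2 change of 1 given to 200 of the 31280 probes. The test recovered 59% of these changes, and 11 of its 129 calls were false. Recovery for dim probes, such as most of the Hox probes, was not measured apart. Arrays give no read depth, and their number limits the precision.

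The Hox genes and the comparison lists were chosen with earlier results of these data known. Tested Hox genes are named with their values, the others by detection, genes of the lists where they passed the test, and ParaHox genes in every case. Hoxd4 and Hoxa2 were given values after theirs were seen, as were the second probes, Hoxa5, Ttll6 and Phc3. Same-numbered replicates did not deviate together (correlations of -0.48 to -0.19), so numbers were not taken as pairs. Some genes of these lists are counted but not reported here by name. Alternatives were the detection rule, the scaling, the background correction, the filter, blocks, weights and each array left out.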

Additional observations from a re-analysis of the deposited data

Results flagged for a closer look

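Among 28 groups of 4 arrays examined, 26 of log2 signals for the tested Hox genes and 2 of the number of Hox probes detected, 7 held an array whose gap to the nearest other array was unusually large for 4 values. Chance gives this in about 1 of 20 groups, or 1.4 of 28, and the genes share their arrays. The unusual array was the highest of its group each time.

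WT replicate 1 was the array in 4 of them. Its log2 signal was -3.06 for Hoxa6, against -4.94 to -4.75 on the other WT arrays, and -4.14 for Hoxb3, against -6.85 to -6.50. It was -3.73 for Hoxb4, against -5.74 to -5.43, and -3.06 for Hoxc10, against -4.81 to -4.53. Nkx2-1cKO replicate 4 was the array in the other 3. Its log2 signal was -5.96 for Hoxb3, against -7.79 to -7.51 on the other Nkx2-1cKO arrays, and -6.05 for Hoxd3, against -6.89 to -6.81. On it 17 Hox probes were well above background, against 8 to 9 on the others of its group.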

How the results depend on the processing

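Detection depended on the rule. With the software's weaker flag for positive and significant signal, 19 Hox probes were detected on all 8 arrays, 6 on none, 27 on all WT and 19 on all Nkx2-1cKO arrays. Above the 95th percentile of negative control spots these were 16, 6, 26 and 16, and above the 99th percentile 3, 14, 4 and 3. Leaving out single arrays gave 6 to 7, 23 to 27, 13 to 14 and 6 to 8. With no filter 46 probes of 36 genes, and with a filter of all 8 arrays 6 probes of 6 genes, would be tested. No alternative with a test called a tested Hox gene (smallest adjusted p 0.264 in limma). Normexp turned the sign of 12 genes, to 0.42 for Hoxa13, 0.26 for Hoxa3, 0.39 for Hoxa4, 0.33 for Hoxa6, 0.59 for Hoxa7, 0.41 for Hoxa9, 0.36 for Hoxb13, 0.56 for Hoxb3, 0.31 for Hoxb4, 0.25 for Hoxc10, 0.46 for Hoxd10 and 0.57 for Hoxd3; the cause was not tested. Hoxa3 also turned with median centring (0.059), array weights (0.18) and, chosen after seeing the data, a slide block without WT replicate 1 (0.023), and with 1 array left out it ran from -0.20 to 0.12. Hoxa7 turned with quantile normalization (0.13), and Hoxb6 ran from -0.051 to 0.41 with 1 array left out. With 1 array left out the other genes kept their sign: -1.79 to -1.06 for Hoxa4, -0.67 to -0.05 for Hoxa6, -0.36 to -0.11 for Hoxa7, -0.93 to -0.37 for Hoxa9, -1.08 to -0.15 for Hoxa13, -1.41 to -0.95 for Hoxb3 where it passed the filter (-1.56 to -0.50 over all 8 arrays left out in turn without it, chosen after seeing the data), -1.08 to -0.41 for Hoxb4, -1.43 to -0.63 for Hoxb13, -0.90 to -0.31 for Hoxc10, -0.90 to -0.24 for Hoxd3 and -1.35 to -0.43 for Hoxd10. Hoxd4 had no Nkx2-1cKO array well above background and was fitted only after seeing the data. With no filter its log2 difference was -2.17 ± 0.46 (SE, limma, adjusted p = 0.0896), a size that rests on values near background. With 1 array left out it ran from -2.60 to -2.02, and it turned with normexp (0.47). With the replicate number as a block 0 Hox probes were called, Hoxa4 stayed at -1.51, and over all probes 73 were called in place of 324; no sample correlated best with the one of its own number. With the slide as a block 473 were called, none of them Hox. Signals near the background limit what can be said of most Hox genes.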
